A study of Mus musculus with 114 samples.

Results

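The genes described here are 46 regulators of pre-mRNA splicing, followed in ribosome-bound RNA from mouse prefrontal cortex over the day. They came from a list of gene symbols, and all 46 were found by Ensembl identifier among the 13101 genes of the deposited count table. They comprise 10 SR proteins, 4 CLK kinases, 2 Tra2 proteins, 19 hnRNP proteins, 3 Luc7-like proteins, 3 RBM proteins and 5 other coactivators or nuclear speckle proteins rich in arginine and serine. All 46 passed the filter on low counts in every fit.

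All mice carried RiboTag, an epitope-tagged ribosomal protein that Cre recombinase switches on in a chosen cell type. Ribosomes were pulled down with an antibody to the haemagglutinin tag, and the RNA on them was sequenced. The study compared parvalbumin (PV) interneurons with pyramidal neurons at 6 points of the daily cycle. Zeitgeber time (ZT) counts hours from lights on, and samples run from ZT2 to ZT22 in steps of 4 h. The 55 PV-titled libraries (28 female, 27 male) and the 58 C-titled libraries (29 female, 29 male) gave 8 to 10 libraries for each prefix and time. The cell type field of the labels runs against the titles throughout, calling PV-titled libraries pyramidal and C-titled libraries parvalbumin, so groups go by title here. The sources used here do not give the Cre driver, the strain and age of the mice or the number of animals behind a library. P-values therefore measure the spread between libraries, which may be partly technical.

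Markers placed the PV-titled libraries on the interneuron side. Pvalb averaged 38.9 ± 18.5 CPM (read counts scaled to a common library total) in PV-titled libraries and 1.07 ± 0.918 CPM in C-titled libraries (SD, n = 55 and 58), and all 8 PV interneuron and 4 GABAergic markers were higher in PV-titled libraries. Of 8 pyramidal markers 7 were lower there, although their summed level was still 1353 to 3631 CPM in PV-titled libraries, against 3630 to 7577 CPM in C-titled libraries. Markers of astrocytes (6 of 6), oligodendrocytes (5 of 5 measured), microglia (6 of 6) and endothelial and mural cells (6 of 6) were higher in PV-titled libraries too. Counts on genes came to 19.1e6 to 39.5e6 per PV-titled library and 24.6e6 to 44.1e6 per C-titled library. By the median correlation with the rest of their prefix, 3 PV-titled libraries (ZT10, ZT14 and ZT22) and 5 C-titled libraries (2 at ZT2, 3 at ZT6) stood apart, and results that rest on them are given with and without them.

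SR proteins bind exonic enhancers through RNA recognition motifs and recruit the spliceosome through a domain rich in arginine and serine. CLK kinases phosphorylate that domain, which releases SR proteins from nuclear speckles. The hnRNP proteins coat nascent transcripts, often oppose SR proteins at splice sites, and several also act in export, localisation and translation of mRNA. Many genes of both families control their own output through poison exons or retained introns, which send the transcript to nonsense-mediated decay or hold it in the nucleus.

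PV-titled libraries held more RNA of most SR proteins and of every CLK kinase, Tra2, Luc7-like, RBM and speckle gene listed, while the hnRNP genes went both ways. Of 46 genes, 33 were higher and 11 lower in PV-titled libraries at an adjusted p under 0.05, by edgeR's quasi-likelihood test with Benjamini-Hochberg adjustment over all genes. Among all genes tested 44.3% were higher and 43.2% lower, so that a call alone was common. At least 2-fold higher were 19 of the 46, against 20.2% of all genes, and at least 2-fold lower were 2, against 6.55%. The median log2 difference of the 46 was 0.75, against 0.01 for all genes. Without the libraries that stand apart 43 of the 46 were called in either direction (88.7% of all genes). Without TMM scaling the median of all genes moved to 0.21 and that of the 46 to 0.95, with 34 higher and 7 lower. In pulled-down bulk RNA, more cells of a type and more RNA per cell cannot be told apart.

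By family, 9 of 10 SR genes were higher in PV-titled libraries and Srsf4 was lower. The hnRNP genes split into 7 higher and 10 lower, with a median log2 difference of -0.19, and Hnrnpa3 and Hnrnpd did not pass the test. The other 17 genes were all higher, with family medians of 1.55 for CLK kinases, 0.83 for Tra2 proteins, 1.90 for Luc7-like proteins and 1.40 for the speckle proteins. No hnRNP gene was 2-fold higher; the largest positive difference was 0.93 ± 0.04 (SE) for Hnrnpdl, a paralogue of Hnrnpd.

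**Figure D1:**
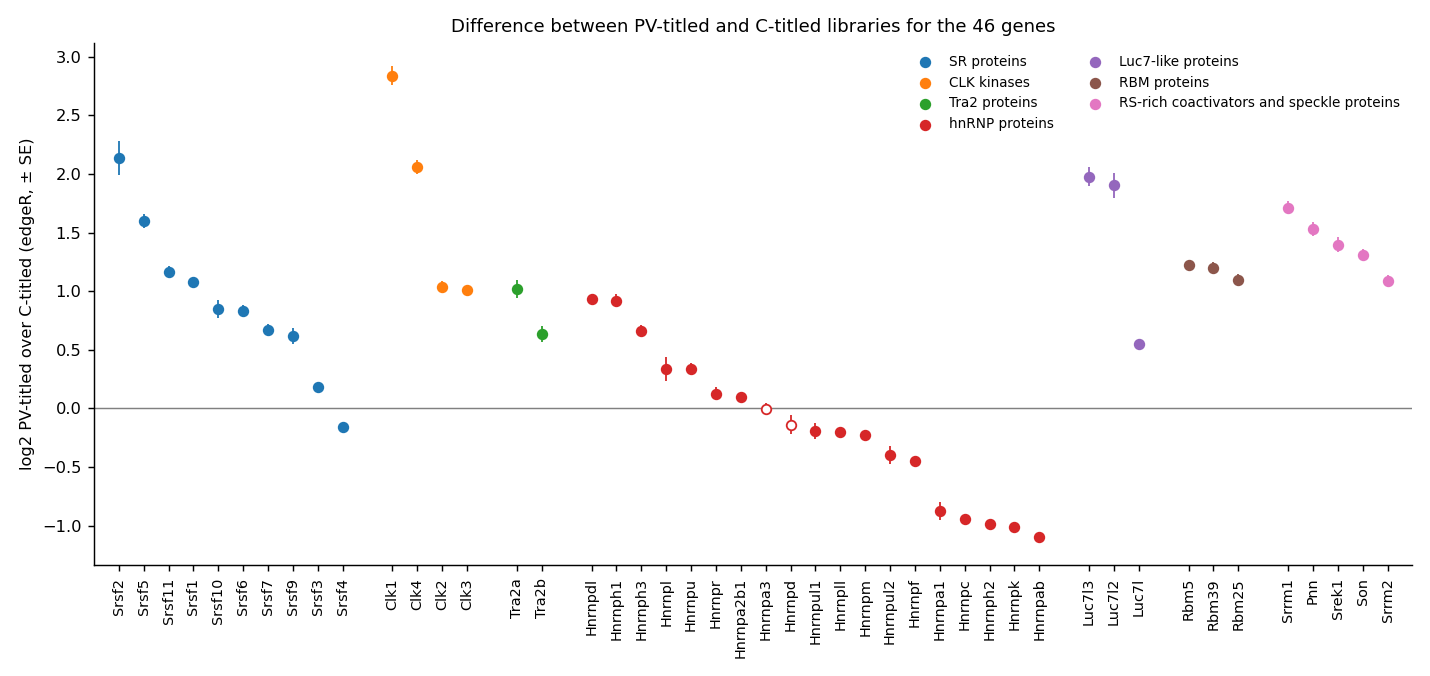
The log2 difference of PV-titled over C-titled libraries (y axis, ± SE from edgeR) for the 46 genes, ordered within family. Filled points have an adjusted p under 0.05; the hnRNP genes run from 0.93 for Hnrnpdl to -1.10 for Hnrnpab, and every gene of the last 3 families lies above 0.

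Clk1 (ENSMUSG00000026034, chromosome 1, 58410189 to 58424066, minus strand, GRCm38), a kinase of SR proteins, had the largest difference. Its lowest, median and highest levels were 177.8, 339.5 and 778.6 CPM in PV-titled libraries and 18.5, 50.3 and 106.4 CPM in C-titled libraries. Every PV-titled library lay above every C-titled one. The share of all genes with such a separation is not given here. The log2 difference was 2.84 ± 0.08 (SE), a 7.15-fold higher level, with an adjusted p of 6.92e-60. Medians from ZT2 to ZT22 were 334.1, 310.6, 311.8, 430.7, 391.3 and 280.6 CPM in PV-titled libraries, against 46.8, 46.3, 50.5, 56.2, 53.4 and 42.1 CPM in C-titled libraries.

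Clk4 (chromosome 11, 51261730 to 51281766, plus strand), a close paralogue of Clk1, had 61.1, 168.6 and 324.3 CPM as lowest, median and highest in PV-titled libraries and 22.9, 39.7 and 68.8 CPM in C-titled libraries. All but 1 PV-titled library exceeded the highest C-titled library, and the log2 difference was 2.06 ± 0.06. By time, medians were 164.4, 180.3, 157.7, 201.1, 168.6 and 150.9 CPM in PV-titled libraries and 38.6, 39.7, 43.3, 45.8, 38.6 and 34.1 CPM in C-titled libraries. Clk2 and Clk3 differed less, at 1.04 ± 0.05 and 1.01 ± 0.04, but also nearly without overlap: 54 and 53 of 55 PV-titled libraries exceeded every C-titled one. The CLK genes are annotated with many intron-retaining transcripts, 7 of 13 for Clk1 and 7 of 14 for Clk4, and counts per gene do not separate these from the coding forms.

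Srsf2 (ENSMUSG00000034120, chromosome 11, 116849901 to 116853094, minus strand), also known as SC35, was the SR gene with the largest and most scattered difference. Its lowest, median and highest levels were 135.8, 638.8 and 5429 CPM in PV-titled libraries and 65.3, 179.3 and 886.0 CPM in C-titled libraries. The groups overlapped: 17 PV-titled libraries exceeded the highest C-titled one, and 54 exceeded the C-titled median. The count of 17 rests on the C-titled value of 886.0 CPM, from ZT2. At each other time the highest C-titled library lay between 230.7 and 364.4 CPM. The log2 difference was 2.14 ± 0.14 and stayed 2.14 without the libraries that stand apart, which included both the lowest and the highest PV-titled value. Medians from ZT2 to ZT22 were 661.5, 769.4, 911.9, 787.4, 609.1 and 489.1 CPM in PV-titled libraries and 175.6, 165.7, 187.9, 196.95, 206.9 and 167.3 CPM in C-titled libraries. Exons of Mettl23 and Mfsd11 on the opposite strand cover 25.3% of its exon bases, and the strand setting of the counting is not given in the sources used here, so part of its counts may belong to them.

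Among the other SR genes, Srsf5 was 3.03-fold higher in PV-titled libraries, Srsf11 2.25-fold and Srsf1 2.11-fold. Srsf1 is the founding SR protein, and Srsf11 is the arginine and serine-rich protein p54. Srsf6, Srsf7, Srsf9 and Srsf10 had log2 differences between 0.62 and 0.85. Srsf3, the smallest of the family and a factor in mRNA export, differed by 0.18 ± 0.03. No PV-titled library (highest 217.5 CPM) lay above the highest C-titled one, 274.6 CPM, which came from a library that stands apart at ZT2. The rest of the C-titled libraries at ZT2 reached 165.5 CPM. At each other time the highest C-titled library lay between 165.1 and 215.5 CPM. Srsf4 differed by -0.16 ± 0.04; its exons share 43.0% of their bases with a gene on the opposite strand, Gm12992, and its call was lost without TMM scaling and with upper quartile scaling.

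Luc7-like proteins are relatives of a yeast component of the U1 particle, which recognises 5′ splice sites. Luc7l3 had 198.997, 483.5 and 1159 CPM as lowest, median and highest in PV-titled libraries and 77.7, 116.6 and 376.2 CPM in C-titled libraries. Its 46 highest PV-titled libraries lay above all C-titled ones, and the log2 difference was 1.98 ± 0.08. Medians over the day were 541.4, 624.2, 483.5, 481.6, 421.0 and 421.1 CPM in PV-titled libraries and 135.5, 117.0, 117.6, 108.4, 116.6 and 105.9 CPM in C-titled libraries.

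Luc7l2 showed a similar difference at a lower level, with 19.9, 61.0 and 149.5 CPM in PV-titled libraries and 8.46, 14.5 and 77.6 CPM in C-titled libraries, a log2 difference of 1.90 ± 0.11. Its medians by time were 62.1, 74.9, 64.7, 61.3, 53.6 and 55.0 CPM in PV-titled libraries and 17.1, 13.6, 15.8, 13.3, 16.4 and 13.2 CPM in C-titled libraries. Only 12 PV-titled libraries exceeded the highest C-titled library, and the highest 2 C-titled values, 77.6 and 76.0 CPM, came from libraries that stand apart. An opposite-strand gene, Gm26699, covers 18.9% of its exon bases. Luc7l differed least of the 3, at 0.55 ± 0.05.

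Srrm1 (chromosome 4, 135320484 to 135353321, minus strand), a splicing coactivator that bridges SR proteins and snRNPs, had 92.2, 200.7 and 346.7 CPM as lowest, median and highest in PV-titled libraries and 38.6, 58.5 and 154.5 CPM in C-titled libraries. In 46 PV-titled libraries it exceeded every C-titled value, and the log2 difference was 1.71 ± 0.06. Its medians were 213.5, 237.8, 183.96, 196.1, 207.3 and 189.1 CPM from ZT2 to ZT22 in PV-titled libraries and 60.3, 57.6, 64.2, 55.8, 57.7 and 52.7 CPM in C-titled libraries. The speckle proteins Son and Srrm2, which form the core of nuclear speckles, differed by 1.31 ± 0.05 and 1.09 ± 0.05, and Pnn and Srek1 by 1.53 ± 0.06 and 1.40 ± 0.06. Rbm5, Rbm39 and Rbm25 lay close together, at 2.33-fold, 2.30-fold and 2.14-fold higher. Tra2a and Tra2b, which bind exonic enhancers with SR proteins, differed by 1.02 ± 0.08 and 0.63 ± 0.07.

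The 5 hnRNP genes with the lowest ratios were Hnrnpab, Hnrnpk, Hnrnph2, Hnrnpc and Hnrnpa1, and 4 of them had groups that did not overlap at all. The share of all genes whose groups did not overlap is not given here, so this count stands without a background. Hnrnpab (ENSMUSG00000020358, chromosome 11, 51600100 to 51606847, minus strand), an RNA-binding protein of dendritic transport granules, had 59.8, 89.6 and 136.0 CPM in PV-titled libraries and 157.7, 195.2 and 240.2 CPM in C-titled libraries as lowest, median and highest. Its log2 difference was -1.10 ± 0.04, a level 2.14-fold higher in C-titled libraries. Medians by time were 87.8, 92.5, 96.7, 81.3, 86.6 and 94.3 CPM in PV-titled libraries and 197.8, 203.9, 191.4, 194.4, 189.2 and 189.2 CPM in C-titled libraries. Opposite-strand exons of Phykpl share 29.1% of its exon bases.

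Hnrnpk (chromosome 13, 58391142 to 58403343, minus strand), which binds C-rich RNA, had 222.1, 288.6 and 376.9 CPM in PV-titled libraries and 377.8, 594.4 and 733.5 CPM in C-titled libraries. The highest PV-titled library was just under the lowest C-titled one, which is a library that stands apart; without such libraries the lowest C-titled value was 486.6 CPM. The log2 difference of -1.01 ± 0.03 had the smallest p of the 46 genes (adjusted p 9.88e-61). Medians by time were 276.4, 283.3, 308.8, 292.1, 300.8 and 280.7 CPM in PV-titled libraries and 592.0, 615.9, 621.5, 618.8, 558.3 and 576.6 CPM in C-titled libraries.

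Hnrnph2, an X-linked member of the group that binds G-rich RNA, had 66.2, 97.2 and 136.0 CPM in PV-titled libraries and 142.7, 190.7 and 229.3 CPM in C-titled libraries, a log2 difference of -0.99 ± 0.03. Its paralogue Hnrnph1 went the other way, at 0.92 ± 0.06, with medians of 179.6 CPM in PV-titled libraries and 95.8 CPM in C-titled libraries. Hnrnph3 was also higher, at 0.66 ± 0.05, and Hnrnpf was lower, at -0.45 ± 0.04, with 31.8 CPM (median; 17.7 to 50.2) in PV-titled libraries and 42.8 CPM (27.7 to 58.5) in C-titled libraries. Thus the H/F group held both directions. By time, Hnrnph2 medians were 98.3, 98.4, 104.6, 95.1, 93.4 and 95.9 CPM in PV-titled libraries and 207.3, 203.6, 195.7, 182.8, 181.5 and 189.1 CPM in C-titled libraries. Those of Hnrnpf were 32.5, 30.4, 31.8, 31.9, 31.3 and 30.8 CPM in PV-titled libraries and 42.4, 40.7, 43.0, 45.7, 42.4 and 42.4 CPM in C-titled libraries. Other genes lie opposite 26.5% of the exon bases of Hnrnpf.

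Hnrnpc, which binds uridine tracts and packages nascent RNA, had 64.7, 114.8 and 163.9 CPM in PV-titled libraries and 174.9, 223.5 and 275.6 CPM in C-titled libraries, with a log2 difference of -0.94 ± 0.04. Hnrnpa1, the classical antagonist of Srsf1, had 41.8, 58.8 and 174.5 CPM in PV-titled libraries and 75.9, 106.3 and 385.1 CPM in C-titled libraries, with a log2 difference of -0.88 ± 0.08. Here the groups overlapped, and 46 of 55 PV-titled libraries lay under the lowest C-titled one. Hnrnpa1 medians by time were 57.1, 58.7, 67.4, 66.9, 58.3 and 56.9 CPM in PV-titled libraries and 110.8, 115.6, 112.2, 105.9, 97.7 and 99.2 CPM in C-titled libraries. Hnrnpa1 and Tra2b have annotated pseudogene copies, named after them, that could take or lend reads. Pseudogenes under other names were not searched for any of the 46 genes. The Hnrnpa1 relatives Hnrnpa2b1 and Hnrnpa3 had smaller differences, at 0.10 ± 0.04 (adjusted p 0.033) and -0.00 ± 0.05 (adjusted p 0.935). The call of Hnrnpa2b1 was lost with DESeq2, with the title digit as a block, in either library-number range and in either sex alone.

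**Figure D2:**
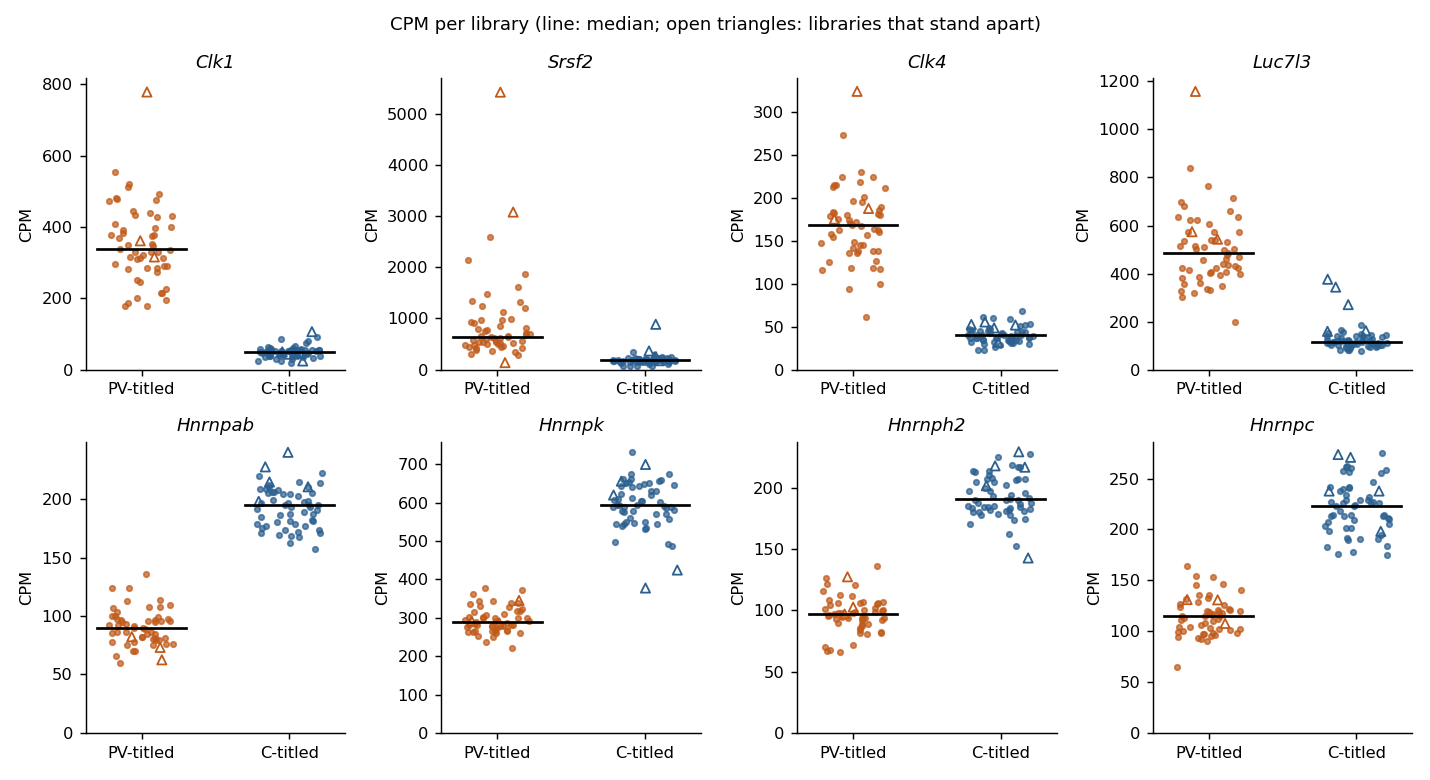
CPM (y axis) of 8 genes in each of the 55 PV-titled and 58 C-titled libraries; points are libraries, lines medians and open triangles the 8 libraries that stand apart. Clk1 separates fully upward, Srsf2 overlaps, and Hnrnpab, Hnrnpk, Hnrnph2 and Hnrnpc separate fully downward in PV-titled libraries. How many of all genes separate fully is not given here.

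The difference between prefixes spanned a narrower range over the day for some genes than for others. Across the 6 times the log2 difference ran from 0.96 to 1.06 for Clk3 and from -1.04 to -0.93 for Hnrnpk. For Srsf2 it ran from 1.62 at ZT2 to 2.79 at ZT14, and without the libraries that stand apart from 1.83 at ZT22 to 2.48 at ZT6. For Luc7l2 it ran from 1.38 at ZT2 to 2.40 at ZT14, and without those libraries from 1.72 at ZT10 to 2.41 at ZT6. Hnrnpl, which binds CA repeats, had -0.24 at ZT2 and 0.96 at ZT14; without those libraries the value at ZT2 was 0.23, that at ZT14 was 0.75 and no time had a negative difference. Single times were not tested against each other. The test of a difference in rhythm between prefixes, described below, called 0 of the 46 genes by edgeR, where it called 0.559% of all genes. Its adjusted p was 0.294 for Srsf2, 0.590 for Luc7l2 and 0.090 for Hnrnpl, which DESeq2 did call.

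Other measures moved with the same split. RNA of 5 long noncoding RNAs retained in or near the nucleus (Malat1, Neat1, Meg3, Miat and Snhg11) summed to 5146, 13930 and 52942 CPM as lowest, median and highest in PV-titled libraries, against 693.1, 1869 and 23437 CPM in C-titled libraries. The 46 genes together came to 6710, 9821 and 19362 CPM in PV-titled libraries and 5258, 5749 and 9230 CPM in C-titled libraries. Reads on no gene made up 55.5% to 67.7% of the counted reads in PV-titled libraries and 51.9% to 59.4% in C-titled libraries. The PV-titled library with the most of the long noncoding RNAs, 52942 CPM at ZT14, also had the highest Clk1, Srsf2, Luc7l2 and Luc7l3 of its prefix. In it 21 of the 46 genes were above every PV-titled library that does not stand apart. The share of all genes is not given here for this count or the similar ones that follow, so they stand without a background. In the C-titled library with the most, 23437 CPM at ZT2, 23 genes were above every C-titled library that does not stand apart. Further C-titled libraries that stand apart had 19 such genes (8343 CPM, ZT6), 17 (3382 CPM, ZT2), 5 (1108 CPM, ZT6) and 2 (1550 CPM, ZT6). C-titled libraries that do not stand apart reached 4366 CPM of these RNAs. The PV-titled libraries that stand apart at ZT10 and ZT22 had 5 such genes (15875 CPM) and 2 (7989 CPM). The part of these measures in the prefix difference was not tested. Without the libraries that stand apart the 12 genes given by time kept their direction and call; the log2 difference of Luc7l2 was then 1.97 and that of Hnrnpa1 was -0.82.

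Levels compare between genes only per length of exon. In PV-titled libraries the highest were Srsf5 at 223.1 ± 47.3, Srsf2 at 215.9 ± 282.6 and Srsf9 at 75.0 ± 10.98 CPM per kb (median ± SD over 55 libraries). The lowest were Luc7l2 at 5.05 ± 1.94, Hnrnpul2 at 5.64 ± 1.61 and Hnrnpul1 at 3.59 ± 0.918 CPM per kb. In C-titled libraries the highest were Hnrnpk at 91.9 ± 9.81, Srsf5 at 75.3 ± 18.7 and Hnrnpab at 70.2 ± 6.31 CPM per kb (58 libraries). The lowest there were Hnrnpul1 at 3.96 ± 1.58, Clk2 at 3.61 ± 0.420 and Luc7l2 at 1.199 ± 1.04 CPM per kb. Srsf5 and Srsf2 in PV-titled libraries differed by less than their spread, whereas Luc7l2 lay under Clk2 in C-titled libraries by more than either SD. The orders depended on the length used. Per kb of the longest transcript the highest levels in PV-titled libraries were those of Srsf2 (336.4), Srsf5 (255.5) and Rbm39 (172.5), with Srsf9 at 89.1 CPM per kb. The lowest there were Hnrnpr (6.05), Hnrnpa3 (6.92) and Hnrnpul2 (7.83), while Luc7l2 had 14.3 and Hnrnpul1 8.20 CPM per kb. Hnrnpk was highest and Luc7l2 lowest in C-titled libraries with either length.

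The second question was the profile over the day. A cosine with a period of 24 h was fitted within each prefix, with sex and the library-number range as further terms; the amplitude is given on the log2 scale from mid level to peak. In C-titled libraries 18 of 46 genes were rhythmic at an adjusted p under 0.05, where 27.0% of all genes were. Their peaks fell between ZT0 and ZT12 for 9 genes and between ZT12 and ZT24 for 9, against 2053 and 1465 of the 3518 rhythmic genes in all. Clk4, at ZT12.0 ± 1.0 h, and Hnrnpc, at ZT24.0 ± 0.5 h, lay on the edges of these windows. Srsf6, at ZT0.6 ± 1.1 h, and Tra2a, at ZT22.9 ± 1.1 h, lay within 1 SE of an edge. The daytime set held 6 hnRNP genes (Hnrnpa1, Hnrnpdl, Hnrnph1, Hnrnph2, Hnrnpl and Hnrnpr), with Srsf5, Srsf6 and Srrm1. The other set held Srsf3, Srsf4, Srsf7, Clk4, Tra2a, Hnrnpc, Hnrnpm, Luc7l and Srek1. Without the libraries that stand apart 20 genes were called (22% of all genes, 2864 of 13031), of which 17 were shared and whose peaks split into 9 and 11; Hnrnph1 was lost, and Srsf10, Hnrnph3 and Hnrnpu were gained.

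The promoters of 4 of these genes, 2 peaking by day and 2 by night or at lights on, are shown as a gene with a daytime peak and a gene with a later peak from each of the SR and hnRNP families. Each line gives the 250 bases before the transcription start from RefSeq on GRCm38.p6, 5′ to 3′ on the gene's strand. The windows are chr12:80945249-80945498 (Srsf5, plus strand), chr4:136310692-136310941 (Hnrnpr, plus strand), chr17:80207306-80207555 (Srsf7, minus strand) and chr14:52104022-52104271 (Hnrnpc, minus strand). Capitals mark TGACG, the core of the cAMP response element, and CCAAT, each on either strand.
Srsf5: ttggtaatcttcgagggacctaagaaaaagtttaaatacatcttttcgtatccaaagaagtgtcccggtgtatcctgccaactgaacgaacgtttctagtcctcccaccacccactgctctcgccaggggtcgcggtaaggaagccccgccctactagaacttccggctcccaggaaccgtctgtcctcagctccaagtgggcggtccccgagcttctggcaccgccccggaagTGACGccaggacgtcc
Hnrnpr: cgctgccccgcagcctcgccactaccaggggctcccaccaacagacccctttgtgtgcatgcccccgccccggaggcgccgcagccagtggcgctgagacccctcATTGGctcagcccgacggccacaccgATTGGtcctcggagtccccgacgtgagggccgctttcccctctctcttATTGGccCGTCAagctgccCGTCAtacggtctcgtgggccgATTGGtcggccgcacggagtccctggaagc
Srsf7: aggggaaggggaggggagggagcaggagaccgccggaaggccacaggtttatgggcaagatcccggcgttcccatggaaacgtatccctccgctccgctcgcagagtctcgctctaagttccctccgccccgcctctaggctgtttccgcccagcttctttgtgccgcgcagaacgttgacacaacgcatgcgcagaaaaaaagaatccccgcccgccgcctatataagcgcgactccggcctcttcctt
Hnrnpc: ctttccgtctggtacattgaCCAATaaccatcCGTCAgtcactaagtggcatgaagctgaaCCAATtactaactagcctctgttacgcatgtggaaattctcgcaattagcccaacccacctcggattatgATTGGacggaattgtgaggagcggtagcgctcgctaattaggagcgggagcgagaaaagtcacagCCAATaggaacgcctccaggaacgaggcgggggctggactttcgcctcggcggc
Of the 46 genes 42 had a promoter in the table, searched over 300 bases from 250 before to 50 after the start on both strands. TGACG was found in 24 of them, or 57.1%, against 20.9% of all 32544 promoters of that length. Among genes rhythmic in C-titled libraries it was in 12 of 17, and among the other genes in 12 of 25; the rhythmic Hnrnpdl, Srsf4, Srsf7, Hnrnpa1 and Srrm1 had none. CCAAT was found in 23, or 54.8%, against 37.4%. The full element TGACGTCA, which contains TGACG, was in 2 (Clk4 and Tra2a), or 4.76%, against 1.80%, and the E-box CACGTG in 5 (Clk2, Hnrnpa3, Hnrnpd, Hnrnph2 and Hnrnpm), or 11.9%, against 7.17%. Promoters of the 46 genes were richer in G and C, with a median of 64.2% against 53.0%, and these matches describe letters and not binding.

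Hnrnpdl (ENSMUSG00000029328, chromosome 5, 100033577 to 100039664, minus strand) had the smallest p of the rhythm test in C-titled libraries. Its medians from ZT2 to ZT22 were 297.7, 283.5, 260.7, 300.7, 246.4 and 240.4 CPM in PV-titled libraries and 141.9, 165.2, 174.4, 140.0, 110.2 and 119.2 CPM in C-titled libraries. C-titled libraries ranged from 122.7 to 212.9 CPM at ZT10 and from 99.7 to 150.5 CPM at ZT18. These 2 times overlapped in part, with the ZT18 median under every ZT10 library. The fitted amplitude in C-titled libraries was 0.30 ± 0.03 with a peak at ZT7.8 ± 0.4 h, a 1.52-fold change from trough to peak (adjusted p 5.66e-09). In PV-titled libraries the amplitude was 0.12 with a peak at ZT7.9, and the test was not passed.

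Srsf5 (ENSMUSG00000021134, chromosome 12, 80945504 to 80950507, plus strand), an SR protein also called SRp40, peaked at ZT5.9 ± 0.5 h in C-titled libraries with an amplitude of 0.36 ± 0.05 (adjusted p 2.61e-07). Medians by time were 978.5, 1034, 728.1, 909.6, 901.0 and 754.5 CPM in PV-titled libraries and 355.6, 322.4, 333.8, 247.05, 183.9 and 240.1 CPM in C-titled libraries. At ZT6 the C-titled libraries lay between 308.9 and 379.0 CPM and at ZT18 between 161.5 and 321.1 CPM, so the groups overlapped, with the ZT18 median under every ZT6 library. The amplitude in PV-titled libraries was 0.09.

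Hnrnpr and Hnrnpl also peaked by day. Hnrnpr, a neuronal RNA-binding protein of axonal mRNA transport, had medians of 126.2, 142.6, 122.8, 146.1, 123.4 and 114.0 CPM in PV-titled libraries and 123.4, 127.3, 134.5, 125.8, 110.5 and 112.3 CPM in C-titled libraries. Its C-titled amplitude was small, 0.13 ± 0.03 at ZT8.9 ± 0.7 h, with libraries from 93.6 to 165.7 CPM at ZT10 and from 100.3 to 117.6 CPM at ZT18. Hnrnpl had medians of 72.6, 91.3, 80.9, 85.2, 82.7 and 75.6 CPM in PV-titled libraries and 76.8, 73.9, 58.2, 53.5, 56.2 and 53.6 CPM in C-titled libraries. Its C-titled amplitude of 0.43 ± 0.09 at ZT5.8 leaned on the libraries that stand apart, which had 97.7 to 205.1 CPM at ZT2 and ZT6; without them it was 0.25 at ZT7.9 (adjusted p 0.010). Hnrnpa1 behaved alike, with 0.33 ± 0.08 at ZT5.7 and 0.17 at ZT8.0 without those libraries.

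Hnrnpc peaked at the turn from night to day, at ZT24.0 ± 0.5 h in C-titled libraries, with an amplitude of 0.16 ± 0.02 (adjusted p 2.67e-06). Its medians were 120.9, 111.3, 120.5, 101.2, 118.9 and 114.6 CPM in PV-titled libraries and 257.1, 214.8, 205.4, 196.004, 226.3 and 243.95 CPM in C-titled libraries. At ZT2 the C-titled libraries spanned 212.96 to 275.6 CPM and at ZT14 they spanned 175.97 to 229.4 CPM, with a small overlap. The PV-titled fit gave 0.09 at a peak of ZT0.0 and did not pass the test.

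Srsf3 peaked at night, at ZT19.7 ± 0.7 h in C-titled libraries (amplitude 0.19 ± 0.03, adjusted p 3.47e-04). Medians were 170.3, 175.4, 157.96, 187.3, 182.6 and 166.1 CPM in PV-titled libraries and 151.2, 131.3, 134.3, 153.7, 179.2 and 162.5 CPM in C-titled libraries. C-titled libraries spanned 153.8 to 215.5 CPM at ZT18 and 117.3 to 165.1 CPM at ZT6, so every ZT18 library lay above the ZT6 median. Srsf4 and Srsf7 peaked close to it, at ZT18.7 and ZT19.8 with amplitudes of 0.12 ± 0.03 and 0.15 ± 0.04. Thus 2 of the 5 rhythmic SR genes, Srsf5 and Srsf6, had peaks between ZT0 and ZT12 and 3 had peaks near ZT19. The Srsf6 peak, at ZT0.6 ± 1.1 h, lay within 1 SE of ZT0, and its call was lost without TMM scaling.

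Hnrnpm and Luc7l were the other night-peaking genes among the 8 with the smallest p. Hnrnpm, which binds GU-rich RNA, had medians of 113.1, 107.8, 83.0, 89.1, 93.7 and 99.6 CPM in PV-titled libraries and 123.8, 104.6, 105.8, 104.6, 124.7 and 124.7 CPM in C-titled libraries. Its C-titled amplitude was 0.16 ± 0.03 at ZT21.9, and exons of a neighbouring gene on the same strand, March2, share 14.7% of its exon bases. Luc7l had medians of 162.2, 157.6, 139.0, 168.01, 138.3 and 145.2 CPM in PV-titled libraries and 101.6, 88.8, 95.3, 104.0, 123.4 and 117.4 CPM in C-titled libraries. Its C-titled amplitude was 0.19 ± 0.04 at ZT18.8 ± 0.8 h.

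**Figure D3:**
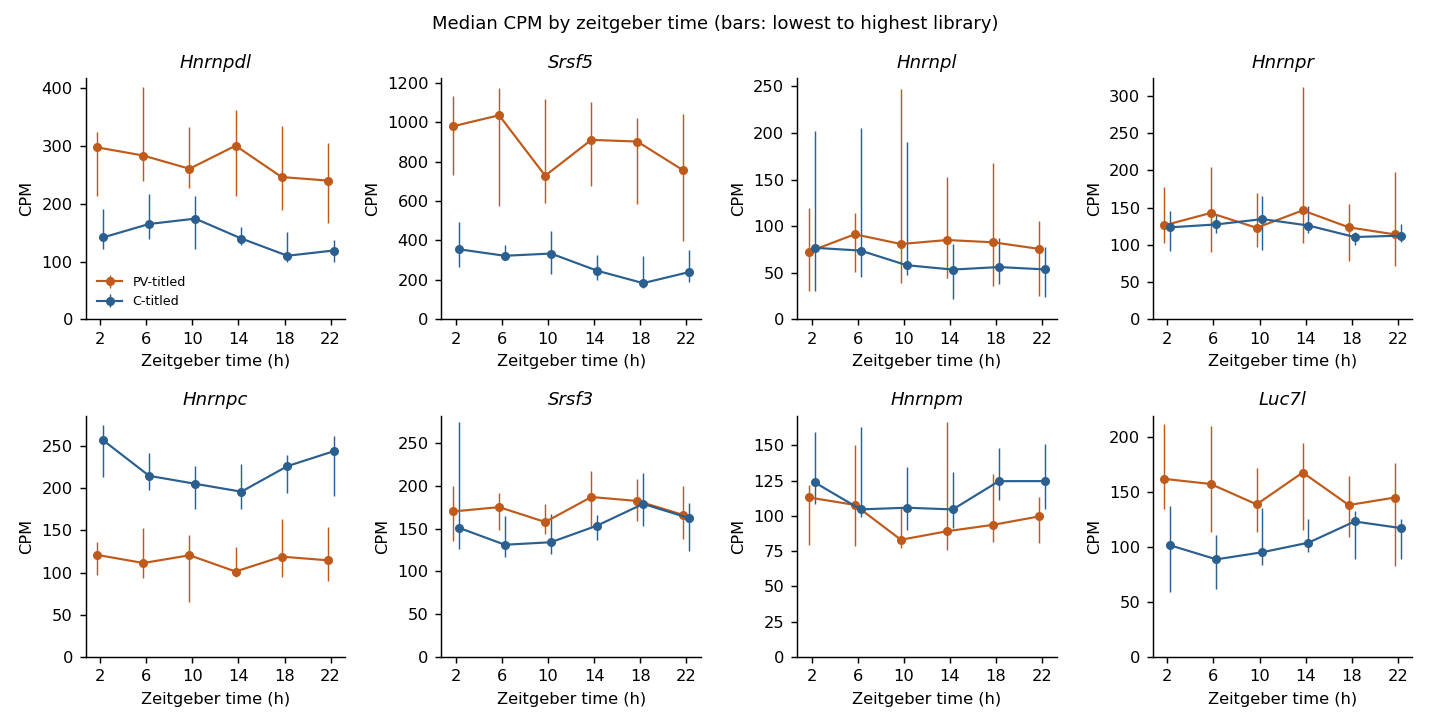
Median CPM (y axis) against zeitgeber time in hours for the 8 genes with the smallest p of the rhythm test in C-titled libraries; orange is PV-titled, blue is C-titled, and bars run from the lowest to the highest library. The C-titled medians of Hnrnpdl and Srsf5 are lowest at ZT18, when those of Srsf3 and Luc7l are highest.

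In PV-titled libraries 1 of 46 genes, Hnrnpu, passed the rhythm test, where 3.10% of all genes did. At an unadjusted p under 0.05 there were 12 of the 46, against 17.2% of all genes. Without the libraries that stand apart Luc7l3 was called as well (4.06% of all genes). Hnrnpu (chromosome 1, 178321108 to 178337797, minus strand) encodes the scaffold attachment factor SAF-A, which ties RNA to chromatin. Its medians were 193.6, 223.9, 215.8, 187.4, 168.96 and 169.2 CPM in PV-titled libraries and 143.2, 144.4, 164.2, 146.8, 146.6 and 127.4 CPM in C-titled libraries. PV-titled libraries spanned 155.4 to 268.8 CPM at ZT6 and 134.7 to 194.4 CPM at ZT22, which overlapped. The PV-titled amplitude was 0.22 ± 0.05 at ZT8.4 ± 0.9 h (adjusted p 0.0151). In C-titled libraries it was 0.17 ± 0.06 at ZT6.6 (adjusted p 0.060), and the difference between prefixes had an adjusted p of 0.764. Srsf2 had the largest fitted PV-titled amplitude, 0.51 ± 0.16 at ZT11.8, but an adjusted p of 0.129.

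**Figure D4:**
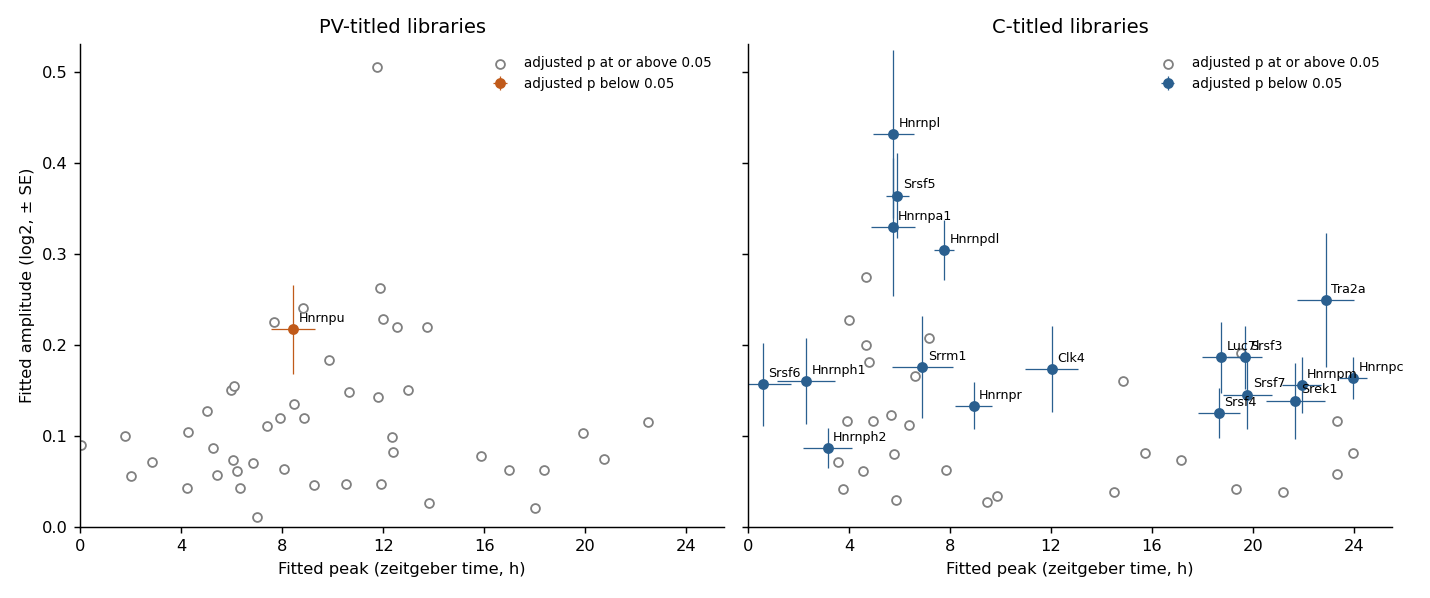
Fitted amplitude (log2, y axis) against fitted peak (zeitgeber time in hours, x axis) of the 46 genes in PV-titled libraries (left) and C-titled libraries (right). Filled points, with bars of 1 SE, passed the rhythm test: 1 gene in the left panel and 18 in the right panel, 9 of these with a peak from ZT0 to ZT12.

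The rhythm itself did not differ between prefixes for any of the 46 genes at an adjusted p under 0.05, where 0.559% of all genes did so by edgeR; 12 of the 46 had an unadjusted p under 0.05, as did 13.5% of all genes. The lowest adjusted p values were 0.083 for Luc7l, 0.090 for Hnrnpl and 0.114 for Srsf5. Luc7l had a fitted amplitude of 0.07 at ZT6.8 in PV-titled libraries and of 0.19 at ZT18.8 in C-titled libraries. DESeq2 called 2 of the 46, Luc7l and Hnrnpl, and it also called more of all genes than edgeR did. The share of all genes called by DESeq2 is not given here, so its 2 calls stand without a background. The larger number of rhythmic genes in C-titled libraries is thus a count within each prefix and not a tested difference of these genes.

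The library numbers in the titles fall into 2 ranges, which split each prefix into 26 and 29 PV-titled and 29 and 29 C-titled libraries. The prefix difference was called for 40 of the 46 genes in the first range (79.6% of all genes) and for 41 in the second (85.1%). Rhythm held less well in the smaller sets. In PV-titled libraries no gene of the 46 was called in either range, where 0.153% and 0.307% of all genes were. In C-titled libraries 5 genes were called in the first range (2.90% of all genes) and 7 in the second (10.2%), all among the 18. For Hnrnpu the amplitude in PV-titled libraries was 0.23 and 0.21 in the first and second range. In females alone it was 0.30 and in males alone 0.13, where the call was lost.

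Sex made no called difference. None of the 46 genes differed between males and females at an adjusted p under 0.05 by edgeR, in PV-titled libraries (0.0307% of all genes did) or in C-titled libraries (0.184%). DESeq2 also called 0 in both. At an unadjusted p under 0.05 there were 0 genes in PV-titled libraries (2.77% of all genes) and 5 in the C-titled ones (7.61% of all genes), namely Clk1, Clk4, Hnrnph2, Rbm5 and Srek1; for Clk1 the log2 difference of males over females was -0.30 ± 0.10 (adjusted p 0.330).

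The rest of the splicing machinery gave another picture from the SR and CLK genes. Of 36 genes of spliceosomal particles and splice-site recognition 8 were higher and 26 lower in PV-titled libraries, with a median log2 difference of -0.50. Sf3b1, the branch point factor of the U2 particle, was higher at 1.37 ± 0.04, as was the U1-associated Prpf40b at 1.26 ± 0.04. The Sm core proteins Snrpd3 and Snrpd2 were lower, at -1.20 ± 0.06 and -1.18 ± 0.08. Of these 36 genes 12 were rhythmic in C-titled libraries (7 peaked from ZT0 to ZT12) and 0 in PV-titled libraries. For this list and those below, the shares over all genes were 44.3% higher and 43.2% lower in PV-titled libraries. Rhythm was called for 27.0% of all genes in C-titled libraries and for 3.10% in PV-titled libraries.

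Of 25 measured neuronal and tissue-specific splicing regulators 10 were higher and 12 lower, with a median of -0.08. Qk, which is abundant in glia, was higher at 2.23 ± 0.08 and Ptbp1, which is abundant outside neurons, at 1.36 ± 0.06. Rbfox3 (NeuN) and Rbfox1 were lower, at -0.85 ± 0.04 and -0.82 ± 0.04. Rhythm was called for 9 of the 25 in C-titled libraries, among them Celf6 at ZT20.7 (amplitude 0.27 ± 0.04), and for 1 in PV-titled libraries. Of 6 kinases and other modifiers of SR proteins 3 were higher and 2 lower: Srpk3 at 2.04 ± 0.12, Prpf4b at 1.37 ± 0.05 and Srpk1 at 0.82 ± 0.07, against Ppp1r8 at -0.53 ± 0.07; 3 of the 6 were rhythmic in C-titled libraries. Of 14 genes of nonsense-mediated decay 8 were higher and 5 lower, with the kinase gene Smg1 at 2.01 ± 0.09 and the exon junction gene Eif4a3 at -0.93 ± 0.03, and 2 were rhythmic in C-titled libraries.

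The annotation of the 46 genes differs from that of other genes in a way the choice did not use. Transcripts tagged as subject to nonsense-mediated decay are annotated for 36 of the 46 genes, or 78.3%, against 29.2% of the 11763 protein-coding genes of the table. Transcripts with a retained intron are annotated for 39, or 84.8%, against 60.2%. Within the list, such decay transcripts belong to 9 of 10 SR genes, to 4 of 4 CLK genes and to 10 of 19 hnRNP genes. A count per gene sums all these forms, so the differences above do not say which form changed.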

How the data were processed

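Counts of reads per gene, as deposited by the authors in 1 table, were used unchanged. The submitters' processing notes name FastQC, HTSeq, DESeq2 and the build GRCm38; the sources used here do not give versions, aligner, annotation or strand setting. Of 114 libraries 113 were used: 1 column was left out because the sex in its name differs from the only title it could fit. Reads on no gene stayed out of library sizes and tests.

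Symbols and positions came from GENCODE vM21. Tests used R 4.3.3 and edgeR 4.0.16 (TMM, filterByExpr on prefix, time and sex, quasi-likelihood F tests), with Benjamini-Hochberg adjustment over all genes and a threshold of 0.05. The prefix fit had time as a factor, sex and library-number range as terms; rhythm fits had cosine and sine of 24 h, sex and range. SEs were derived from the F tests. CPM use TMM library sizes. A library stood apart when its median correlation lay more than 5 median absolute deviations under that of its prefix. The same functions were checked on simulated counts. Alternatives included DESeq2 1.42.0.

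The members and lists were chosen with earlier results of these data known. All 46 were counted; genes given by time are up to 6 called in each direction with the largest difference, up to 8 with the smallest rhythm p per prefix, and up to 4 of each further list by size or p. Genes outside these rules were named after their values were seen.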

Additional observations from a re-analysis of the deposited data

Results flagged for a closer look

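Within a prefix and time, 10 of 108 groups of libraries had 1 library far from the others, where chance gives about 1 in 20, and 5 of the 10 came from libraries that stand apart. In PV-titled libraries these were Hnrnpu at ZT14 (363.9 CPM, against 149.3 to 222.5 in the other libraries), Hnrnpc at ZT18 (163.9, against 94.2 to 129.1), and Hnrnpm at ZT2 (79.2, against 106.6 to 122.0) and at ZT6 (150.3, against 78.4 to 113.1). In C-titled libraries they were Hnrnpdl at ZT6 (217.4 CPM, against 139.9 to 175.7), Srsf3 at ZT2 (274.6, against 126.0 to 165.5) and at ZT6 (165.1, against 117.3 to 141.7), Hnrnpr at ZT14 (151.7, against 115.5 to 132.3), Hnrnpm at ZT6 (162.9, against 99.4 to 114.5) and Luc7l at ZT10 (135.5, against 84.0 to 107.9). The 3 C-titled values at ZT6 came from the same library, replicate 10. The high Hnrnpu value lies in the PV-titled library with the most nuclear long noncoding RNA.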

How the results depend on the processing

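Prefix differences were called for 40 to 44 of the 46 genes under all 12 alternatives, and the 12 differences named by size kept direction and call. Over all genes, the same alternatives called 10398 of 13065 to 11586 of 13057. Rhythm calls depended on the libraries used. In PV-titled libraries 1 gene became 2 without the range term (Srsf2 gained) and 2 without the libraries that stand apart (Luc7l3 gained). The count was 3 in females, and 0 in males, in either range and with time as a factor. Over all genes, 404 of 13047 PV-titled calls became 459 without the range term. Without the libraries that stand apart they became 530 of 13051. In females they were 130 of 13036 and in males 8 of 13042. In the first and second range they were 20 of 13056 and 40 of 13048. With time as a factor they fell too. In C-titled libraries 18 became 5 and 7 in the first and second range, 3 in females and 6 in males, sets with fewer libraries, and lay between 12 and 23 otherwise. Calls over all genes fell in these sets too. From 3518 of 13029 they became 378 of 13028 and 1334 of 13031 in the first and second range. In females they were 269 of 13024 and in males 472 of 13018, with 1307 to 3737 otherwise. The difference in rhythm went from 0 to 2 genes with DESeq2, whose share of all genes is not given here. DESeq2 also called more of all genes than edgeR in that test. The cause was not tested. The labels do not say that a title digit marks shared animals: PV-titled and C-titled libraries with the same digit, time and sex had a median correlation of deviations of 0.08 (53 pairs; 24 over 0.1), other pairs -0.02. With the digit as replicate block, 43 prefix differences, 1 PV-titled rhythm, 20 C-titled rhythms, 0 rhythm differences and 0 sex differences were called. Over all genes that block gave 11431 prefix differences, 461 PV-titled rhythms, 3342 C-titled rhythms and 24 rhythm differences. Counts per library were 19.1e6 to 44.1e6; what depth limits was not measured separately.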
